A study of Mus musculus with 6 samples.

Results

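The genes of the major histocompatibility complex (MHC) class II pathway were described across the leukocytes of the mouse lung. The set holds 10 of the 20882 gene columns of the deposited tables. It was given by name, and earlier results of these data were known when it was chosen. Its members are the chain genes H2-Aa, H2-Ab1 and H2-Eb1, the invariant chain Cd74 and the transactivator Ciita. The others are the peptide editors H2-DMa, H2-DMb1 and H2-DMb2, and their inhibitors H2-Oa and H2-Ob. All 10 were present in every table.

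The study treated mice with a humanized PD-1, 6 to 8 weeks old, with a PD-1 agonist or with an isotype control. The control cells are called "Untreated" in a column of the authors' own tables. Live CD45+ cells sorted from the lung were sequenced as single cells in droplets (10x Genomics Chromium). Per the labels, 3 samples per group were mixed by cell hashing, in which each sample carries an antibody-bound tag. The series title places the work in neutrophilic asthma, but the labels used here give no asthma induction, dose, route or background strain. No hashtag measurement was used, so cells could not be assigned to mice.

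Each treatment has 3 tables, and these are not separate samples of cells. Within a treatment, any pair of tables shared 2373 to 2736 cell barcodes, 35.9 to 42.5% of the smaller table, and the profiles of a shared barcode had a cosine similarity of 0.930 to 0.947, against 0.473 to 0.494 for different barcodes. Tables of different treatments shared 3 to 13 barcodes. Each barcode was therefore counted once per treatment, from the record with its highest total, and each treatment is 1 pool. The agonist pool kept 11178 cells with a median of 2143 counts, and the isotype pool 10299 cells with a median of 2455. Differences between treatments have no replicate check and were not tested. Intervals are 95% and cover counting error only.

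MHC class II molecules are pairs of an alpha and a beta chain that present peptides from engulfed material to CD4+ T cells. The invariant chain, the product of Cd74, holds the groove closed until it reaches late endosomes, where the H2-DM heterodimer trades its last fragment for peptide and H2-O restrains H2-DM. Ciita is the master regulator that switches the genes on by docking onto proteins already bound at their promoters. In the lung, dendritic cells carry antigen to lymph nodes, interstitial macrophages present it locally, and monocytes can gain class II as they mature in tissue.

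Class II promoters are known for an X box, bound by the RFX complex, followed by a Y box, bound by NF-Y, the surface onto which Ciita docks. RefSeq promoter windows (GRCm38.p6, 250 bases before to 50 bases after a gene start) were available for 7 of the 10 genes, and H2-Ab1, Cd74 and Ciita had none. The letters searched, on both strands, were TGATTGG for the Y box, which stood in 7.82% of 32851 mouse windows, and CNNGNAAC from the X box, which stood in 39.1%. Both together, with 15 to 40 bases between them, stood in 64 windows (0.195%), and 5 of the 7 genes were among them: H2-Aa, H2-DMb1, H2-Eb1, H2-Oa and H2-Ob. The motifs were chosen after the sequences were seen, so these counts are descriptive. The stretches below show the shared arrangement in 2 chain genes and an inhibitor gene, and its partial form in H2-DMb2. They cover bases 130 to 31 before the RefSeq start, 5′ to 3′ on the gene's strand, with the motifs in capitals. H2-Aa also held TGACGTCA, the cyclic AMP response element, which stood in 1.79% of windows and did not overlap the others.
H2-Aa, chr17:34287854-34287953, minus strand: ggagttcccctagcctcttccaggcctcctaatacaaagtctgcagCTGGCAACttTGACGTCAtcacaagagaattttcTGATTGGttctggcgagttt
H2-Eb1, chr17:34305737-34305836, plus strand: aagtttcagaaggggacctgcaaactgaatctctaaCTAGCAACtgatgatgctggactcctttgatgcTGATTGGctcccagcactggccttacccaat
H2-Ob, chr17:34238775-34238874, plus strand: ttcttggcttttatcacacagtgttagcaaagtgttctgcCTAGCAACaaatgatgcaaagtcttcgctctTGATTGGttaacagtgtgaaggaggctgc
H2-DMb2, chr17:34145119-34145218, plus strand: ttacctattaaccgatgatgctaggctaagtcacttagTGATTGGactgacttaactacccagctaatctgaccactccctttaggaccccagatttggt

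H2-Ob carries the same pair of motifs as H2-Aa and H2-Eb1, yet its levels across cells followed another order, as described below. In the H2-DMb2 stretch only the Y box letters stood in capitals. A match describes letters and not a bound site.

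In the GENCODE annotation of GRCm38, 8 of the 10 genes lie within 224 kb of chromosome 17, between positions 34092340 and 34316674, in the order H2-Oa, H2-DMa, H2-DMb2, H2-DMb1, H2-Ob, H2-Ab1, H2-Aa and H2-Eb1. H2-Aa is on the minus strand and the other 7 are on the plus strand. Ciita lies on chromosome 16 (10480059 to 10528418, plus strand) and Cd74 on chromosome 18 (60803848 to 60812652, plus strand). All 10 are annotated as protein-coding.

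Cells were clustered without the class II genes among the variable genes, and clusters were named from marker lists as B cell-like, neutrophil-like and so on. This gave 16 named classes. Sub-clusters with many markers of a second class or low counts were set aside, 1143 agonist and 1012 isotype cells. Ptprc, which encodes the sorted surface protein CD45, stood at 425 CPM or more in every class, and summed epithelial, endothelial and fibroblast markers were at most 38.1 CPM over all cells of either pool. CPM scales a gene's counts to a class total of 1000000 and compares classes, not genes.

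**Figure D1:**
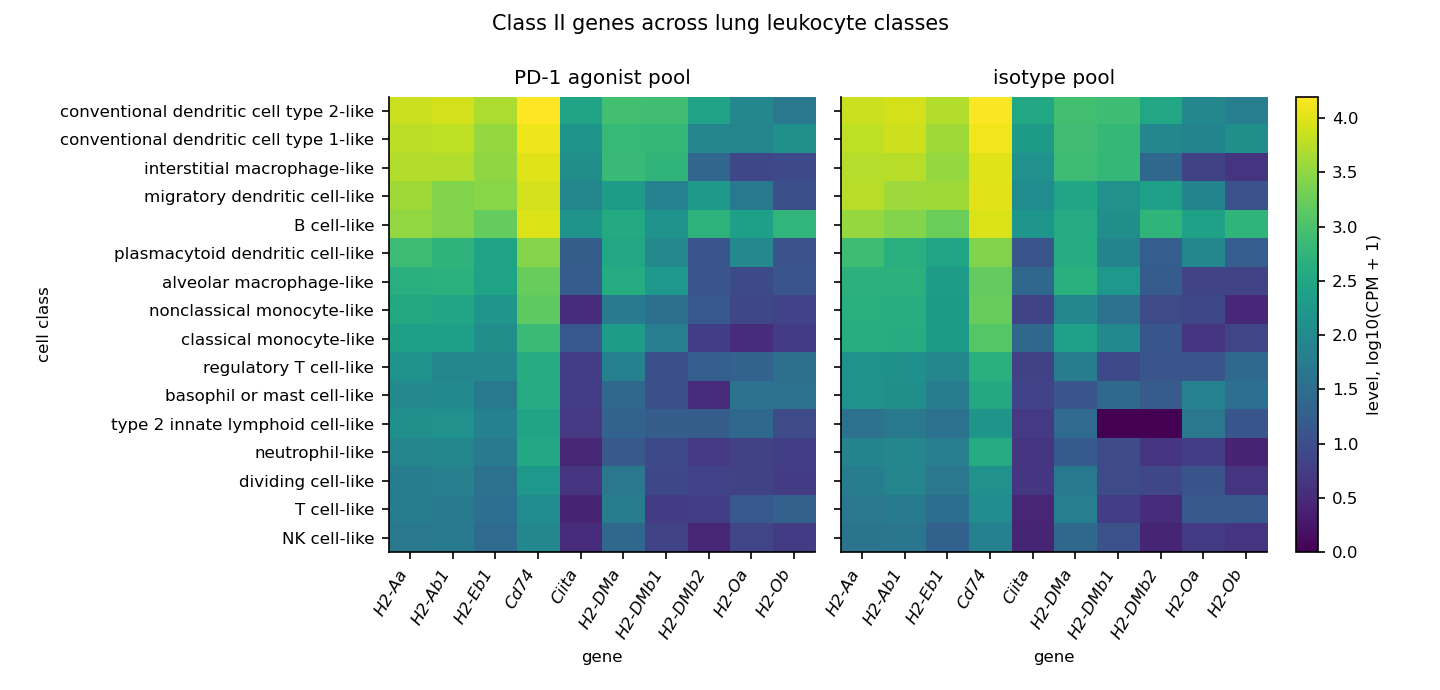
Levels of the 10 class II genes in 16 cell classes, as log10(CPM + 1), in the PD-1 agonist pool (left) and the isotype pool (right), with classes ordered by the summed level of H2-Aa, H2-Ab1 and H2-Eb1. The upper 5 rows stand apart in both pools, and H2-Oa and H2-Ob are bright in the B cell-like row but dark in the interstitial macrophage-like row.

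The class II chains were concentrated in 5 classes. H2-Aa and H2-Ab1 encode the alpha and beta chains of I-A, and H2-Eb1 the beta chain of I-E. Their counts together made up 2.04% of all counts of type 2 conventional dendritic cell-like (cDC2-like) cells in the agonist pool and 2.11% in the isotype pool. Type 1 conventional dendritic cell-like (cDC1-like) cells, only 53 and 39 in number, followed at 1.58% and 1.77%. Interstitial macrophage-like cells held 1.36% and 1.44%, migratory dendritic cell-like cells 0.951% and 1.35%, and B cell-like cells 0.737% and 0.784%. No other named class reached 0.5% in either pool, and the next, plasmacytoid dendritic cell-like cells, held 0.157% and 0.152%.

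The 568 agonist and 633 isotype interstitial macrophage-like cells held the biggest share of the chain counts of any named class, 27.8% and 35.4%. This class is mixed. It joins 340 and 425 cells of a cluster led by C1qa, C1qb and C1qc with a cluster led by Slc7a2, Gpnmb, Ctsk, Inhba and Arg1. The latter gave sub-clusters of 114 and 109 cells and of 114 and 99 cells. Gpnmb and Arg1 were themselves in the marker list that named the class. The B cell-like cells, 19.1% and 17.7% of all cells, held 15.97% and 15.39%. The cells set aside held 34.1% and 26.3%, so a large part of the class II signal lies outside the named classes.

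H2-Ab1 stood at 8169 CPM (7996 to 8346) in agonist and 8514 CPM (8331 to 8700) in isotype cDC2-like cells. In interstitial macrophage-like cells it stood at 5247 and 5521 CPM, in migratory dendritic cell-like cells at 2571 and 3812 CPM, and in B cell-like cells at 2489 and 2663 CPM. The intervals of the migratory (2456 to 2690) and B cell-like (2440 to 2539) classes overlapped in the agonist pool, and were apart in the isotype pool. Classical monocyte-like cells had 237 and 395 CPM and nonclassical monocyte-like cells 294 and 410 CPM.

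Neutrophil-like, T cell-like and NK cell-like cells gave a floor to these levels. H2-Ab1 had 84.2 and 86.6 CPM in neutrophil-like cells, 50.2 and 52.2 CPM in T cell-like cells and 51.2 and 44.0 CPM in NK cell-like cells, agonist and isotype in turn. These types make little or no class II in the mouse. Free RNA in the droplets can give counts of abundant genes to any cell, and its part here was not tested. After thinning each cell to 1000 counts, H2-Ab1 was seen in 7.13 and 7.67% of neutrophil-like, 4.76 and 5.19% of T cell-like and 4.88 and 4.15% of NK cell-like cells. H2-Ab1 was seen in 97.3 and 99.3% of cDC2-like, 89.0 and 88.9% of interstitial macrophage-like and 87.3 and 88.3% of B cell-like cells. Classical monocyte-like cells were at 11.4% (8.38 to 14.96) and 15.2% (11.8 to 19.2), against 7.13% (6.07 to 8.32) and 7.67% (6.48 to 9.01) in neutrophil-like cells, so the lower bound was just above that floor in the agonist pool. Before thinning the shares were 25.6% and 30.8% in classical monocyte-like cells, of median depth 5043 and 5603 counts, and 10.8% and 12.9% in neutrophil-like cells, of median depth 1435 and 1568 counts.

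Cd74, the invariant chain, was highest in cDC2-like and cDC1-like cells. It reached 15560 and 14840 CPM in cDC2-like cells and 12170 and 12920 CPM in cDC1-like cells, against 9894 and 9730 CPM in interstitial macrophage-like cells. Migratory dendritic cell-like cells, at 8286 and 10300 CPM, were below the macrophage-like class in the agonist pool and above it in the isotype pool, and plasmacytoid dendritic cell-like cells had 2743 and 2508 CPM. In B cell-like cells it stood at 9406 and 9434 CPM, almost level with the macrophage-like class, although the chain genes there were far lower. The ratio of Cd74 to H2-Ab1 counts therefore differed between classes. It was 1.90 (1.86 to 1.96) and 1.74 (1.70 to 1.79) in cDC2-like cells and 1.89 and 1.76 in interstitial macrophage-like cells. It was 3.78 (3.70 to 3.86) and 3.54 (3.46 to 3.62) in B cell-like cells, and 5.19 (4.66 to 5.80) and 5.60 (4.91 to 6.39) in plasmacytoid dendritic cell-like cells. The intervals of the first pair of classes did not overlap those of the second pair in either pool. High ratios were not particular to the second pair, since nonclassical monocyte-like cells had 4.92 and 4.13. Of the classes that gave the floor, neutrophil-like cells had 3.79 and 4.36, T cell-like cells 2.14 and 2.04 and NK cell-like cells 1.76 and 1.55.

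The chain genes did not keep a fixed ratio either. H2-Eb1 counts were 0.601 and 0.602 of H2-Ab1 counts in cDC2-like cells, 0.603 and 0.619 in interstitial macrophage-like cells and 0.649 and 0.668 in B cell-like cells. In migratory dendritic cell-like cells the ratio was 1.12 (1.05 to 1.19) and 1.06 (1.00 to 1.12), clear of the intervals of those 3 classes in both pools. In regulatory T cell-like cells, with 35 and 45 counts of H2-Eb1, it was 1.03 (0.624 to 1.70) and 0.682 (0.456 to 1.01), intervals that overlap the migratory ones. H2-Aa over H2-Ab1 was 1.58 and 1.48 there, 1.31 and 1.28 in B cell-like cells, 0.991 and 0.984 in interstitial macrophage-like cells and 0.894 and 0.872 in cDC2-like cells.

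**Figure D2:**
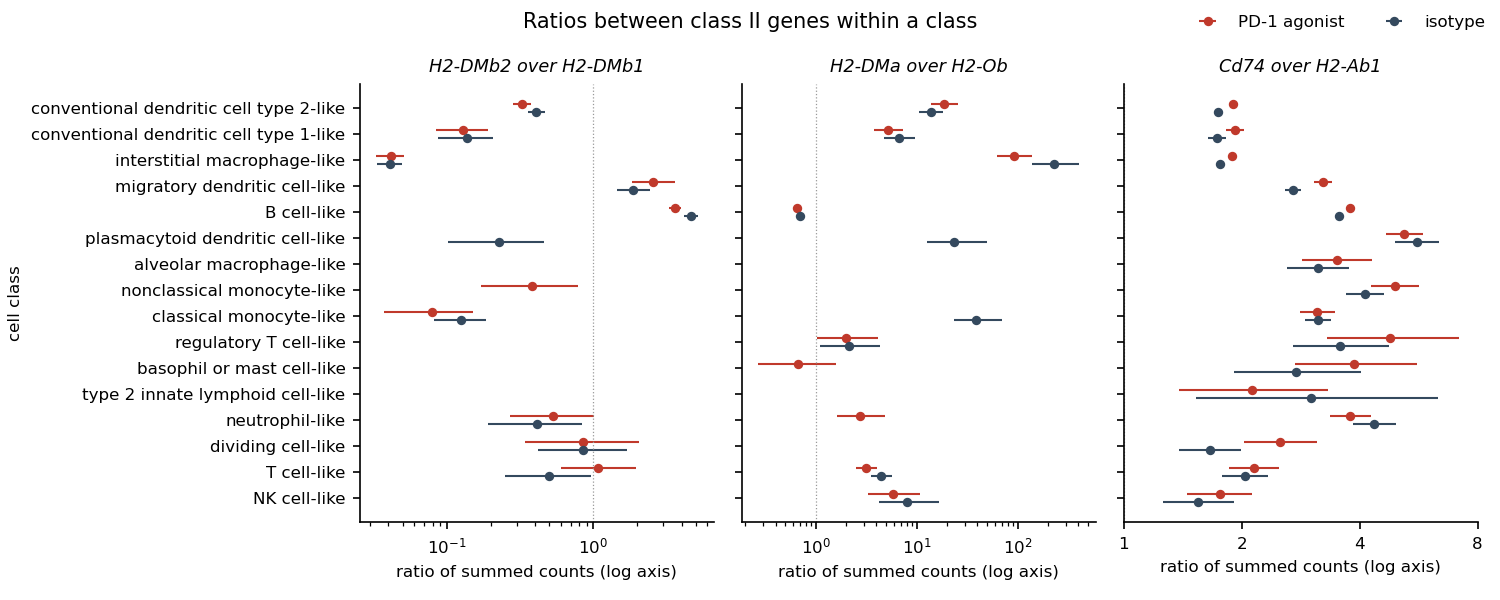
Ratios of summed counts between class II genes within each cell class (log axes), PD-1 agonist in red above isotype in dark blue, with 95% counting intervals; classes with fewer than 10 counts of either gene have no point. H2-DMb2 over H2-DMb1 is highest in B cell-like cells (3.58 and 4.63) and lowest in interstitial macrophage-like cells (0.0414 and 0.0408), where H2-DMa over H2-Ob is highest.

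The peptide editors split by cell type. H2-DMa, the alpha chain of H2-DM, stood at 836 and 845 CPM in cDC2-like cells, 676 and 761 CPM in interstitial macrophage-like cells and 372 and 389 CPM in B cell-like cells. Its beta chain can come from H2-DMb1 or from H2-DMb2. H2-DMb1 stood at 562 and 618 CPM in interstitial macrophage-like cells and at 143 and 121 CPM in B cell-like cells. H2-DMb2 ran the other way, at 23.3 and 25.2 CPM in interstitial macrophage-like cells and 514 and 561 CPM in B cell-like cells. The ratio of H2-DMb2 to H2-DMb1 counts was 3.58 (3.26 to 3.94) and 4.63 (4.17 to 5.15) in B cell-like cells and 0.0414 (0.0329 to 0.0515) and 0.0408 (0.0335 to 0.0492) in interstitial macrophage-like cells. Migratory dendritic cell-like cells, at 2.56 and 1.88, came next to the B cell-like class. It was 0.327 and 0.409 in cDC2-like cells and 0.1295 and 0.1368 in cDC1-like cells. Classes with at most 30 counts of either gene, such as T cell-like cells at 1.08 (0.598 to 1.97) in the agonist pool and dividing cell-like cells at 0.846 (0.343 to 2.05), also lay above the cDC2-like class, with wide intervals. These genes are near-copies: 37.6% of the 31-base words of the H2-DMb1 transcript, and 25.3% of those in its last 500 bases, also occur in H2-DMb2. How reads common to both were shared out is not given in the sources used here, so the split is uncertain in size.

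H2-Oa and H2-Ob, the chains of the inhibitor H2-O, were highest in B cell-like cells. H2-Ob stood at 574 CPM (551 to 599) and 552 CPM (528 to 577) in B cell-like cells. The next class was cDC1-like, at 127 and 122 CPM, then cDC2-like at 44.7 and 60.8 CPM, while interstitial macrophage-like cells had 7.39 and 3.31 CPM. H2-Oa stood in B cell-like cells at 233 and 256 CPM, but plasmacytoid dendritic cell-like cells, at 92.3 and 91.7 CPM, were within counting error of cDC2-like cells, at 85.5 and 90.7 CPM. Plasmacytoid dendritic cell-like cells thus held H2-Oa with little H2-Ob, 10.7 and 16.7 CPM. The ratio of H2-DMa to H2-Ob counts was 0.648 and 0.705 in B cell-like cells and 91.4 (62.7 to 139) and 230 (139 to 411) in interstitial macrophage-like cells.

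Ciita was highest in cDC2-like cells, as the chain genes were, but B cell-like cells stood above migratory dendritic cell-like cells in both pools. It had 286 and 319 CPM in cDC2-like cells, 149 and 159 CPM in B cell-like cells, 147 and 195 CPM in cDC1-like cells, 119 and 131 CPM in interstitial macrophage-like cells and 84.4 and 111 CPM in migratory dendritic cell-like cells. Among the classes after the first, many of these intervals overlapped. T cell-like cells had 1.48 and 1.78 CPM. Relative to H2-Ab1, Ciita was 0.0599 and 0.0599 in B cell-like cells, 0.0350 and 0.0374 in cDC2-like cells and 0.0226 and 0.0238 in interstitial macrophage-like cells, with intervals apart in both pools.

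Over the 16 classes, taking the mean of the pools, Ciita followed the mean of H2-Aa, H2-Ab1, H2-Eb1 and Cd74 with a Pearson correlation of 0.969 on the log2(CPM + 1) scale. H2-DMb1 followed it at 0.937, H2-DMa at 0.881 and H2-DMb2 at 0.874, but H2-Oa at 0.525 and H2-Ob at 0.492. Outside the set, the genes most like that mean were Plekho1 (0.909), Ifi30 (0.906), Erp29 (0.888), Fgd2 (0.887), Kynu (0.886), Pkib (0.884), Cd40 (0.879), Gdi2 (0.868), Cd86 (0.862) and Ppfibp2 (0.862). Ifi30 encodes the lysosomal thiol reductase GILT, which unfolds antigens for class II loading, and Cd40 and Cd86 encode costimulatory receptors. The genes most like Ciita were Ifi30 (0.874), Tmem198b (0.872), Gdi2 (0.868), Plekho1 (0.868) and Erp29 (0.861). The genes most like H2-Ob were Hepacam2 (0.870), Btla (0.839), Rasgrp3 (0.820), Gm16026 (0.809) and Txndc16 (0.777). Of these, Hepacam2 was highest in cDC1-like cells and the other 4 in B cell-like cells. The correlations describe 16 points that share 2 pools and may share free RNA.

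Between treatments, class II was lower in the agonist pool in classical monocyte-like and migratory dendritic cell-like cells, and close to level in the classes that hold most of it. Below, a ratio is the log2 of agonist over isotype levels after TMM scaling within a class, and a gene is called where it is at least 0.5 in size. Ratios were taken in classes with at least 50 cells in each pool and for genes with at least 50 counts over both.

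**Figure D3:**
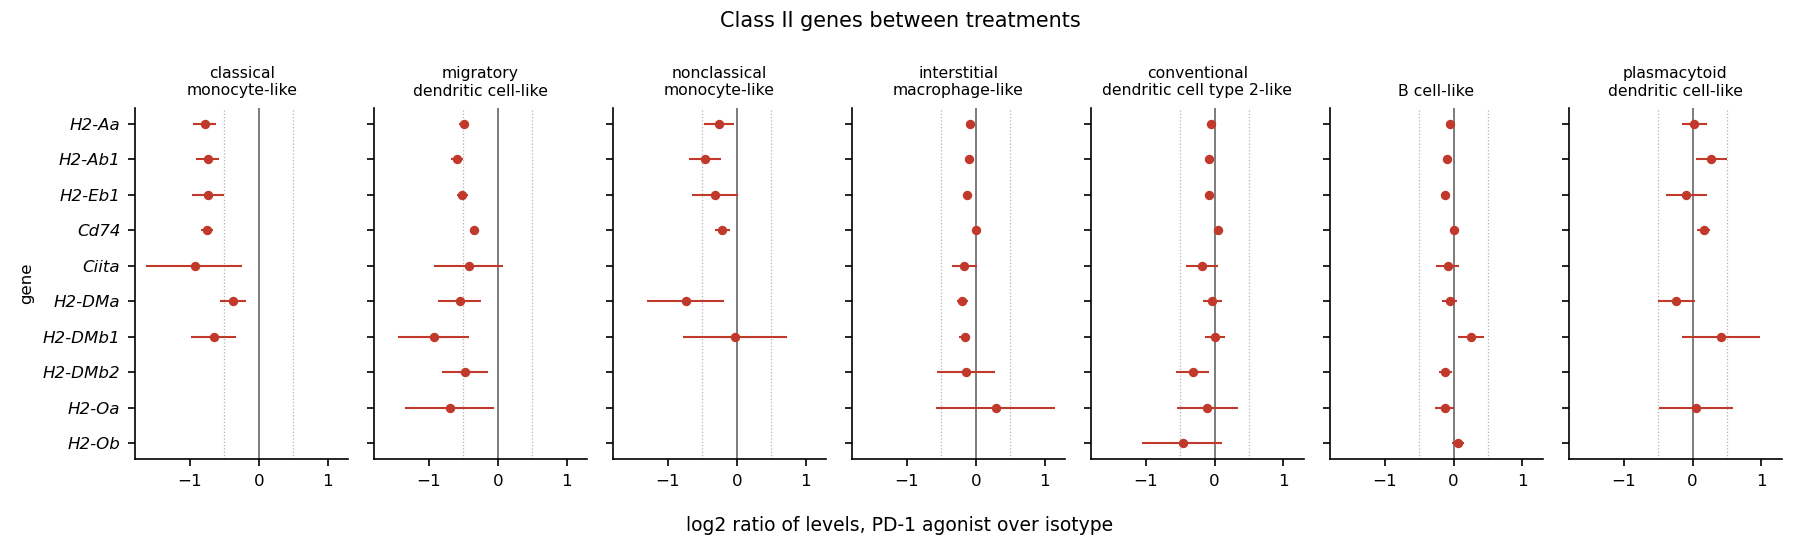
Log2 ratio of levels, PD-1 agonist over isotype, for class II genes in 7 cell classes, with 95% counting intervals; dotted lines mark the call threshold of 0.5 and genes under 50 counts have no point. All points lie below 0 in classical monocyte-like and migratory dendritic cell-like cells, and close to 0 in the cDC2-like and B cell-like cells for the chain genes and Cd74.

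In classical monocyte-like cells (394 agonist, 402 isotype), all 7 genes that could be compared were lower in the agonist pool. H2-Aa had 240 CPM (219 to 262) in agonist and 412 CPM (386 to 439) in isotype cells, a ratio of -0.79 (-0.95 to -0.63). Cd74 had 739 CPM (702 to 778) and 1238 CPM (1192 to 1284), a ratio of -0.75 (-0.84 to -0.66). Ciita had only 27 and 58 counts, 13.4 and 25.4 CPM, a ratio of -0.93 (-1.65 to -0.25). H2-Ab1 (-0.75), H2-Eb1 (-0.74) and H2-DMb1 (-0.66) were lower by similar amounts, and H2-DMa, at -0.38 (-0.57 to -0.19), by less. Thus 6 of the 7 were called lower, against 6.58% of the 7328 genes compared in this class. The median over the 7 genes was -0.75, and over all genes 0.00. H2-DMb2, H2-Oa and H2-Ob were under the count minimum.

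The monocyte counts came from few cells. The median cell had none of the 3 chain genes in either pool, and the 10% of cells with most held 84.6% of the chain counts in the agonist pool and 85.0% in the isotype pool. Cells with at least 0.5% of their counts in the chain genes numbered 13 of 394 (3.30%, 1.77 to 5.58) and 24 of 402 (5.97%, 3.86 to 8.75), shares whose intervals overlap. At the 90th percentile a cell had 0.0748% and 0.251% of its counts in the chain genes.

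The class has 2 sub-clusters, and their sizes differed between pools. The smaller, led by the interferon-gamma-induced chemokine genes Cxcl9 and Cxcl10 with Iigp1 and Acod1, had 64 agonist and 110 isotype cells and held 0.149% and 0.217% of its counts in the chain genes. The larger had 330 and 292 cells and held 0.0394% and 0.0515%. Within them the summed ratio of the chain genes was -0.59 (-0.74 to -0.45) and -0.41 (-0.56 to -0.26), against -0.76 (-0.86 to -0.66) over the whole class. The 13 B cell markers summed to 193 and 250 CPM in the class, with 1 and 0 of them at 0. The 11 cDC1 markers summed to 892 and 1114 CPM (3 and 4 at 0), the 13 cDC2 markers to 541 and 618 CPM (1 and 2 at 0) and the 12 migratory dendritic cell markers to 132 and 179 CPM (3 and 2 at 0). All 4 sums were lower in the agonist pool, and their part in the result was not tested. The direction held in every alternative run, but the size did not: the summed ratio was -1.74 with called doublets kept, and -1.26 without the first agonist table.

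**Figure D4:**
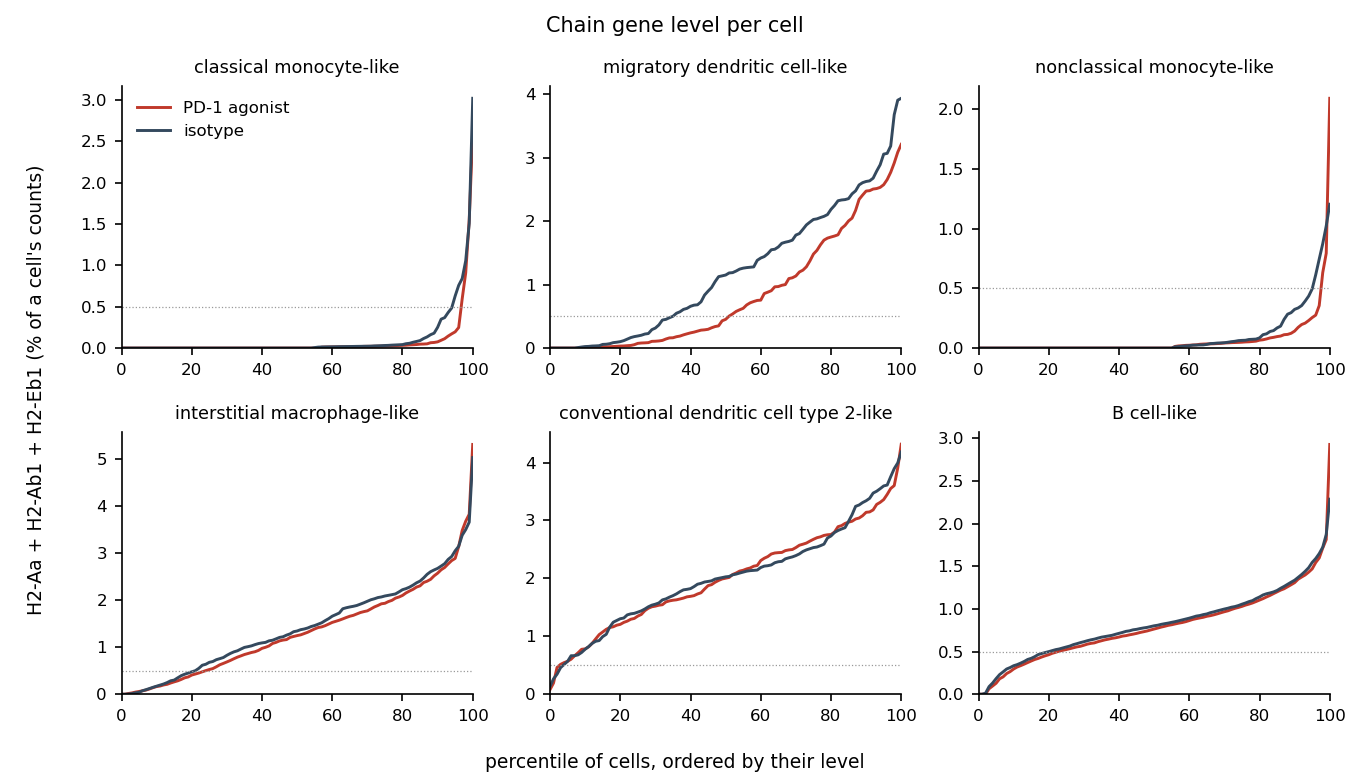
Percent of a cell's counts in H2-Aa, H2-Ab1 and H2-Eb1 (vertical) at each percentile of cells (horizontal) in 6 classes, PD-1 agonist in red and isotype in dark blue; the dotted line marks 0.5%. In monocyte-like cells only the last percentiles rise far off 0, whereas the migratory dendritic cell-like curves separate over the middle of the range, with medians of 0.451% and 1.15%.

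In migratory dendritic cell-like cells (126 agonist, 121 isotype), all 9 genes compared were lower in the agonist pool. Such cells, known by Ccr7, Fscn1 and Ccl22, are the mature state that leaves tissue for lymph nodes. H2-Aa had 4057 CPM (3912 to 4205) in agonist and 5630 CPM (5454 to 5811) in isotype cells, a ratio of -0.50 (-0.57 to -0.43). H2-Ab1 had 2571 CPM (2456 to 2690) and 3812 CPM (3667 to 3961), a ratio of -0.59 (-0.68 to -0.51). Cd74 had 8286 and 10300 CPM, a smaller ratio of -0.34 (-0.39 to -0.29). The widest gap was in H2-DMb1, with 52 and 90 counts, 70.8 and 132 CPM, a ratio of -0.92 (-1.44 to -0.41). H2-Oa stood at -0.69, H2-DMa at -0.56, H2-Eb1 at -0.51, H2-DMb2 at -0.48 and Ciita at -0.43 (-0.93 to 0.08). Called lower were 5 of the 9, against 8.58% of 3941 genes, and the median was -0.51, against -0.03 over all genes.

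Here the shift was spread over many cells. The median cell had 0.451% of its counts in the chain genes in the agonist pool and 1.15% in the isotype pool, and 62 of 126 cells (49.2%, 40.2 to 58.3) and 79 of 121 cells (65.3%, 56.1 to 73.7) had at least 0.5%. Thinned to 1000 counts, 47.9% (38.8 to 57.2) and 66.1% (56.8 to 74.6) of cells had H2-Ab1. For both shares the intervals of the pools overlap. In the larger sub-cluster, 102 and 85 cells, the summed ratio of the chain genes was -0.59 (-0.64 to -0.53). The smaller, 24 and 36 cells, was too small for a ratio and held 1.68% and 1.72% of its counts in them. The 13 cDC2 markers summed to 3652 and 4147 CPM (1 and 4 at 0), the 13 B cell markers to 158 and 79.1 CPM (0 and 8 at 0) and the 15 interstitial macrophage markers to 162 and 44.0 CPM (5 and 7 at 0). The part of these in the result was not tested. The 12 markers of the class itself summed to 18640 and 18920 CPM. The count of genes called rests on the first isotype table: without it none of the 9 was called lower, although all 9 stayed below 0, and the summed ratio of the chain genes was -0.44, against -0.53 with all tables.

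Nonclassical monocyte-like cells had all 6 compared genes lower in the agonist pool, but by less. H2-Ab1 had 294 CPM (259 to 334) in agonist and 410 CPM (371 to 453) in isotype cells, a ratio of -0.46 (-0.70 to -0.23), and Cd74 had 1449 and 1696 CPM, a ratio of -0.21 (-0.32 to -0.10). H2-DMa alone was called, at -0.74 (-1.30 to -0.19), and 8.02% of 5023 genes were called lower. The chain genes together were at -0.35 (-0.49 to -0.20). A single cell held 22.6% and 14.3% of those counts. The direction of that sum turned to 0.39 when the sub-clusters set aside were kept in the class, so no direction is drawn.

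The cDC2-like, interstitial macrophage-like and B cell-like cells differed little. In cDC2-like cells none of the 10 genes was called in either direction, against 8.12% of 5306 genes lower and 8.63% higher. The ratios of H2-Aa, H2-Ab1 and H2-Eb1 were -0.05, -0.08 and -0.08, and Cd74 stood at 0.05 (0.01 to 0.08). The median was -0.08, against -0.03 over all genes. H2-DMb2, with 264 CPM (234 to 298) and 325 CPM (290 to 363), had a ratio of -0.32 (-0.56 to -0.08).

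In interstitial macrophage-like cells none of the 9 genes compared was called, against 4.3% of 9292 genes lower and 5.73% higher. H2-Aa was at -0.09, H2-Ab1 at -0.10 (-0.12 to -0.07), H2-Eb1 at -0.13, H2-DMa at -0.19 (-0.27 to -0.12) and Cd74 at 0.00 (-0.02 to 0.02). The sub-clusters did not all lie on the same side. The largest, led by Ly6i, Vcam1 and Mx1, had a summed chain ratio of -0.07, whereas a sub-cluster led by Ccl17 and Nos2 had 0.17 (0.12 to 0.22) and another led by Retnlg, S100a9 and S100a8, which are neutrophil genes, had 0.23 (0.17 to 0.28). The 15 neutrophil markers summed to 1221 and 400 CPM in the class, with none at 0, and their part was not tested. Without the last sub-cluster the chain ratio of the class was -0.09, against -0.10 with it. The class ratio thus lay below the ratio of each of its sub-clusters. Of the class, the largest sub-cluster made up 340 of 568 agonist and 425 of 633 isotype cells. The part of this mix in the class ratio was not tested.

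In B cell-like cells none of the 10 genes was called, against 4.14% of 9422 genes lower and 5.84% higher. Cd74 was at 0.00 (-0.02 to 0.03), H2-Ab1 at -0.09 (-0.13 to -0.05) and H2-Ob at 0.07 (-0.02 to 0.15). H2-DMb1, with 143 CPM (132 to 156) and 121 CPM (110 to 133), was at 0.25 (0.07 to 0.44), while its near-copy H2-DMb2 was at -0.12 (-0.21 to -0.03). In plasmacytoid dendritic cell-like cells none of the 7 genes compared was called, against 6.01% of 4496 genes lower and 9.27% higher, and their median was 0.04. Summed B cell markers in that class were 1909 and 1205 CPM, and its larger sub-cluster was led by the dendritic cell lectin genes Cd209a and Cd209d. In type 2 innate lymphoid cell-like cells (62 agonist, 71 isotype) Cd74 alone passed the count minimum, with 70 and 36 counts, 281 and 147 CPM, a ratio of 0.93 (0.33 to 1.56), where 14.9% of 1769 genes were called higher. A single cell held 21 of the 70 and 6 of the 36 counts, and with called doublets kept the ratio was 0.07. Over all kept cells the chain genes made up 0.501% of counts in the agonist pool and 0.502% in the isotype pool, and none of the 10 genes was called, against 3.29% of 15109 genes lower and 6.87% higher.

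In T cell-like and NK cell-like cells, at levels near the floor described above, the ratios were mixed. T cell-like cells had 761 agonist and 799 isotype counts of the chain genes, a summed ratio of 0.14 (-0.01 to 0.28). None of the 8 genes compared was called, against 4.37% of 10485 genes lower and 5.57% higher, and their median was 0.00. With called doublets kept the sum turned to -0.72, so no direction is drawn. NK cell-like cells had 424 and 355 chain counts, a summed ratio of 0.28 (0.07 to 0.49), above 0 in every alternative run. Cd74 had 304 and 234 counts there, a ratio of 0.40 (0.15 to 0.65). Of the 6 genes compared, H2-Eb1 was called higher, at 0.53 (0.06 to 1.00), against 6.41% of 9211 genes, and H2-DMb1, with 21 and 35 counts, lower, at -0.71 (-1.57 to 0.11), against 4.29%. Neither call held with called doublets kept, where H2-Eb1 was at 0.20 and H2-DMb1 at -0.12, or with every record kept, at 0.497 and -0.490. Without the second isotype table H2-Eb1 was at 0.39, without the first at 0.44, and H2-DMb1 was at -0.48 without the first agonist table. Regulatory T cell-like cells had 128 and 186 chain counts, and 1 of the 5 genes compared was called lower, H2-Ab1 at -0.62 (-1.26 to 0.00), against 9.52% of 3405 genes lower and 8.05% higher. That call did not hold without the second agonist table (-0.43), the first isotype table (-0.495) or the third isotype table (-0.34).

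Genes that work with class II were read from lists. They are given for the 5 classes richest in the chain genes and Cd74 that allowed ratios and for classical monocyte-like cells. The monocyte-like genes were picked after their values were seen, as were the other classes given for comparison. Irf1, an interferon-induced activator of Ciita, had 153 CPM in agonist and 245 CPM in isotype migratory dendritic cell-like cells, a ratio of -0.71 (-1.07 to -0.35). It stood at -0.40 (-0.56 to -0.24) in B cell-like cells and -0.28 (-0.44 to -0.12) in classical monocyte-like cells. In cDC2-like and plasmacytoid dendritic cell-like cells it stood at -0.33 (-0.72 to 0.05) and -0.29 (-0.60 to 0.02), with intervals that reach past 0. In interstitial macrophage-like cells the levels were close, 147 and 150 CPM. Irf1 was also lower in neutrophil-like cells, a class at the class II floor, at -0.53 (-0.61 to -0.46). There 7.3% of all genes were called lower. It was at -0.13 (-0.30 to 0.04) in NK cell-like cells and 0.09 (-0.29 to 0.46) in basophil or mast cell-like cells. The list of enhanceosome proteins and activators as a whole had 8 of 13 genes lower and none called in classical monocyte-like cells, with a median of -0.06. Over all genes of that class 50.2% were lower and 6.58% called lower. In migratory dendritic cell-like cells 8 of 11 were lower and 3 called lower, with a median of -0.22, where 53.8% of all genes were lower and 8.58% called lower. The cDC2-like cells had 11 of 13 lower and 2 called lower, with a median of -0.20, against 53.6% and 8.12% of all genes. Nonclassical monocyte-like cells had 3 of 11 lower and 1 called lower, with a median of 0.09, against 51.0% and 8.02% of all genes. A lower list was not particular to the classes where class II was lower. Neutrophil-like cells had 10 of 12 lower and 1 called lower, with a median of -0.16, against 50.8% and 7.3% of all genes. For NK cell-like cells it was 11 of 13 and 0, with -0.13, against 52.4% and 4.29%. For T cell-like cells it was 8 of 15 and 0, with -0.01, against 54.5% and 4.37%.

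Other genes of the class II region, among them the peptide transporter genes Tap1 and Tap2 and the immunoproteasome genes Psmb8 and Psmb9, were all lower in classical monocyte-like cells. There 5 of 5 lay below 0 with a median of -0.32, where 50.2% of all genes did, and Tap2, at -0.71 (-1.04 to -0.38), was called, against 6.58% of all genes. This was not particular to the class: 5 of 5 also lay below 0 in neutrophil-like cells (median -0.37) and nonclassical monocyte-like cells (median -0.20). Of all genes, 50.8 and 51.0% did there. Over all kept cells 5 of 6 lay below 0, with a median of -0.165, where 50.8% of all genes did. In basophil or mast cell-like cells 2 of 5 lay below 0, with a median of 0.15, where 50.2% of all genes did. In migratory dendritic cell-like cells 6 of 6 lay below 0, where 53.8% of all genes did, and 2 were called lower, against 8.58% of all genes: H2-Eb2 at -0.93 (-1.58 to -0.31) and Brd2, a chromatin reader gene, at -0.51. Tap1 was at -0.33 there. Psmb9 was at -0.41 (-0.60 to -0.22) in cDC2-like cells and -0.37 in B cell-like cells. In plasmacytoid dendritic cell-like cells the list went both ways, with 2 of 5 below 0, where 47.4% of all genes were, and a median of 0.02. None of the 5 was called, against 6.01% of all genes lower and 9.27% higher. Psmb8 was at -0.22 (-0.46 to 0.01) and Tap2 at 0.23 (-0.21 to 0.69). Psmb8 was at -0.26 in interstitial macrophage-like cells, and Tap2 was at -0.39 in cDC2-like cells and -0.26 in interstitial macrophage-like cells.

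Of the processing genes, Ctsl, a cathepsin that can cut the invariant chain, had 128 CPM in agonist and 198 CPM in isotype interstitial macrophage-like cells, a ratio of -0.65 (-0.82 to -0.49), and was at -0.64 in classical monocyte-like cells. Ctsh was at -0.41 in migratory dendritic cell-like cells, where 10 of 11 listed processing genes lay below 0, against 53.8% of all genes, with a median of -0.11 and none was called. Of the genes that set surface turnover, Cd83, which keeps class II at the surface, was at 0.25 (0.12 to 0.39) in interstitial macrophage-like cells. Ap2m1, an endocytic adaptor gene, was at -0.36 there and -0.40 in B cell-like cells. This was not particular to those classes. At the class II floor it was at -0.575 (-0.93 to -0.23) in neutrophil-like, -0.53 (-0.78 to -0.28) in NK cell-like and -0.40 (-0.64 to -0.17) in T cell-like cells. Irf8 stood higher, at 0.34 (0.17 to 0.52), in migratory dendritic cell-like cells, and Ifngr1, the interferon gamma receptor gene, at 0.35 (0.04 to 0.66) in cDC2-like cells. In B cell-like cells Nfyc, a subunit of the NF-Y complex, was at 0.41 (0.06 to 0.76), and in cDC2-like cells Id2 was at -0.31. For plasmacytoid dendritic cell-like cells Lag3 was at -0.38, Cd4 at 0.36 and Crebbp at 0.31, with intervals that reach close to or past 0.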

How the data were processed

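Single-cell RNA of CD45+ lung cells was deposited as 3 tables per treatment, with 1 record per cell and 20882 genes. The submitters' processing notes name Partek and mm10; no source used here gives the aligner, the counter or the rule for multi-mapping reads. The deposited gene values are estimated counts: 0.717 to 0.733% of nonzero values in a table were not whole within 0.001. The authors' total count, count of expressed genes and percent of mitochondrial and ribosomal reads per cell stand beside them, per the file headers. Tables sum to 21556545 to 25572101 counts for the agonist and 24867171 to 29749815 for isotype.

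Because tables of a treatment shared cells, each barcode was kept once, giving 13728 agonist and 12448 isotype barcodes. Cells the authors had typed in a CD3e column passed (12216 and 11106); these had 500 to 4000 expressed genes and at most 14912 counts. Scrublet, run in scanpy 1.11.5 with an expected rate of 0.1 and a score threshold of 0.25, removed 1038 (8.50%) and 807 (7.27%) as doublets. Clustering used 2000 variable genes without the class II genes, 30 principal components, 15 neighbours and Leiden resolution 1 (leidenalg 0.10.2), with sub-clusters at 0.5. A cluster took a name from at least 3 detected markers. A sub-cluster was set aside where at least 40% of another list's markers led it or its median count was low (below a reference divided by 3). Those set aside for low counts had medians of 1240 and 1070, against 6437 in the largest sub-cluster of their parent. The naming and set-aside rules were chosen after the clusters were seen.

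Rounded counts were summed per class and pool. Levels are CPM, counts scaled to a class total of 1000000, with exact Poisson intervals. Ratios use TMM factors (edgeR 4.0.16, R 4.3.3) with exact Clopper-Pearson intervals. The calculation was run on simulated class sums with Poisson counting error only. That simulation held no spread between cells or mice, so it cannot show how the intervals fare with such spread. Gene ratios needed 10 counts of each gene. The planned edgeR test between treatments was not run, since tables that share cells are not replicates. All 10 class II genes are named. Of the pathway lists, the 5 genes with the largest ratio among those with 200 counts were named in each of 5 classes. A gene that this rule names is not reported here. The class II genes, marker lists and pathway lists were chosen with earlier results of these data known. Alternatives covered scaling, count filters, doublets, clustering, the barcode rule, thinning, leaving out each table and leaving out the top cell.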

Additional observations from a re-analysis of the deposited data

Results flagged for a closer look

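Between the pools, the chain genes H2-Aa, H2-Ab1 and H2-Eb1 had ratios of opposite sign in some classes, but the only rise of at least 0.5 was in a class near the floor. Their summed log2 ratio was -0.76 in classical monocyte-like and -0.53 in migratory dendritic cell-like cells but 1.43 (0.81 to 2.08) in type 2 innate lymphoid cell-like cells. The difference between the first and the last was -2.19, and between the second and the last -1.95. Neither difference was tested. The type 2 innate lymphoid cell-like sums were 82 counts in the agonist pool and 30 in the isotype pool, and a single cell held 34.1% and 16.7% of them. Each chain gene alone was under the count minimum there. No chain count was seen in 71.0% and 71.8% of these cells, against 74.9% and 73.8% of T cell-like cells. In this class 14.9% of 1769 genes were called higher. With called doublets kept the ratio of the sums was 0.035.

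Cells set aside from the named classes held 34.1% of all chain gene counts in the agonist pool and 26.3% in the isotype pool, although they were 10.2% and 9.83% of the cells. Over all cells set aside, 7 of the 10 class II genes were higher and 3 lower in the agonist pool. Their median log2 ratio was 0.12, against 0.01 over all genes. None was called, against 4.28% of 10583 genes lower and 6.8% higher. A sub-cluster of the interstitial macrophage-like parent led by Ace and Treml4, with 126 and 112 cells, lay further from 0. Its chain genes made up 1.24% and 0.871% of counts, a log2 ratio of 0.53 (0.48 to 0.58).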

How the results depend on the processing

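No paired analysis was possible because the tables of a treatment share cells and no result comes from a test; the edgeR test of the tables, with and without a replicate block, was not run for that reason. All values here are log2 ratios of the 3 chain genes, summed, unless named otherwise, and the causes of the shifts were not tested. In classical monocyte-like cells the ratio of -0.76 became -1.74 with doublets kept, -1.06 at clustering resolution 2, -2.20 with the class II genes among the variable genes and -0.87 without the top cell of each pool, and ranged from -1.26 to -0.56 when a table was left out. All 7 genes compared there stayed below 0 in each setting run. In nonclassical monocyte-like cells -0.35 became -0.15 with doublets kept, -0.65 at resolution 2, -0.53 with every record kept, -0.49 without the top cell and 0.39 with the sub-clusters set aside kept, an alternative chosen after seeing the data; with a table left out it ranged from -0.67 to -0.24. In migratory dendritic cell-like cells -0.53 became -0.48 with relative log expression factors, -0.71 with every record kept and -0.43 with the sub-clusters kept, and ranged from -0.66 to -0.44 without a table. There 0 of 9 genes were called without the first isotype table (median -0.35), and 4 to 8 in the other settings. In interstitial macrophage-like cells -0.10 became -0.079 with plain totals, -0.044 with doublets kept, -0.083 at resolution 2, -0.076 with the class II genes among the variable genes and -0.025 with the sub-clusters kept, and ranged from -0.147 to -0.041. In cDC2-like cells -0.069 became -0.021 with relative log expression factors and -0.022 with the sub-clusters kept, and ranged from -0.083 to -0.024. In plasmacytoid dendritic cell-like cells 0.08 became 0.22 with every record kept, and ranged from 0.027 to 0.253. B cell-like cells ranged from -0.10 to -0.06. With doublets kept, T cell-like cells were at -0.719 (0.14 without them), regulatory T cell-like cells at -0.611 (-0.20) and type 2 innate lymphoid cell-like cells at 0.035 (1.43). Without a table these ranged from 0.007 to 0.170, from -0.625 to 0.047 and from 1.012 to 1.666, and NK cell-like cells from 0.20 to 0.34. The number of classes with at least 0.5% of counts in the chain genes was 5 in each setting run. Of the summed chain ratios and the class counts, 130 stayed the same and 46 moved. Of the values for single genes, levels, shares, gene ratios and class ranks, 1226 stayed the same and 156 moved. A ratio, level or share moved where it left its counting interval, and a rank where it changed. Depth limits Ciita, H2-Oa and H2-Ob most: in classical monocyte-like cells Ciita had 27 and 58 counts.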

Other observations

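H2-Eb2, an additional class II beta chain gene next to H2-Eb1, had 430 of its 522 agonist and 403 of its 515 isotype counts in B cell-like cells. It stood at 111 and 112 CPM in agonist and isotype B cell-like cells and at 47.7 and 89.4 CPM in migratory dendritic cell-like cells. In cDC2-like cells it had 3 and 8 counts and in interstitial macrophage-like cells 12 and 6 counts, although H2-Eb1 was higher in both classes than in B cell-like cells. H2-Ea-ps, which stands for the I-E alpha chain and is annotated as a polymorphic pseudogene, had 8 and 7 counts over all kept cells, so transcripts of the I-E beta chain gene were seen with almost none of its alpha partner.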
